A study of Mus spretus with 19 samples.

Results

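The epidermal growth factor (EGF) receptor, 6 of its ligands, the related receptor Erbb3 and the feedback inhibitor Errfi1 were followed in liver RNA of wild male Mus spretus, the Algerian mouse, from 5 sites in southwest Spain. The members were the array probes that carry the symbols Btc, Areg, Ereg, Egf, Hbegf, Tgfa, Egfr, Erbb3 or Errfi1, and the group was chosen because Btc and Areg are higher in the pools from a stream. All 9 symbols were on the array, on 21 of its 41174 gene probes. Each of the 9 genes had a probe that passed the filter on dim signal, among 16346 genes that did, of 27845 gene names in all.

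SOL, the Santa Olalla lagoon, is labelled unpolluted, and the other 4 sites are labelled polluted. PS is the phosphogypsum stacks, and DR1, DR4 and DR6 lie along the Domingo Rubio stream, on its lower, medium and upper course. RNA of 9 livers per site was combined into 1 pool, and each pool was labelled and hybridized anew for 4 arrays, with 3 arrays here for DR6, 19 arrays in all. Arrays from 1 site thus repeat the same pooled RNA, and every SD, SE and p-value below measures the spread of labelling and hybridization, not the spread between mice. Only the test with the 5 pools as units differs, where the spread between site means enters. Each site had a slide and a scan of its own, so differences between sites and between slides cannot be told apart. The probes were designed for Mus musculus, and their match to Mus spretus was not tested.

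EGFR is a receptor tyrosine kinase that is abundant on hepatocytes. Its ligands are made as membrane-bound precursors and are released by ADAM proteases, and a bound receptor pairs with itself or with another ErbB receptor and signals through the Ras-ERK, PI3K and STAT branches. In liver this system is known for its part in hepatocyte proliferation after injury. Betacellulin (Btc), epiregulin (Ereg) and HB-EGF (Hbegf) can bind both EGFR and ErbB4, while EGF, TGF-alpha (Tgfa) and amphiregulin (Areg) bind EGFR. ErbB3 has a weak kinase of its own and binds neuregulins, and Errfi1, also called MIG6, binds the EGFR kinase and inhibits it.

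Several results below rest on single probes, so the sequences of the probes that decide them are shown, 5′ to 3′ as the older design file of the DR1 arrays gives them. The first pair shows Btc, for which 1 probe was well above background on all 19 arrays and the other, with 20% G and C against 35%, on none. Areg had a single probe. The next pair was designed for different Egfr transcripts. In the first 2 Erbb3 probes, capitals mark the 40 bases they share, so they are no separate evidence. The last Erbb3 probe, designed for another, predicted transcript, was the brightest of that symbol, and whether it measures Erbb3 was not tested.
Btc, A_52_P672689: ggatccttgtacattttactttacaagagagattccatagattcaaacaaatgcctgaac
Btc, A_51_P138429: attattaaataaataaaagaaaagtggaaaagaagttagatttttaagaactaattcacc
Areg, A_52_P482897: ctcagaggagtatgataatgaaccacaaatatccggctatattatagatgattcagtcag
Egfr, A_52_P106259: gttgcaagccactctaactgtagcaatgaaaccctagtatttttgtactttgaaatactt
Egfr, A_51_P392242: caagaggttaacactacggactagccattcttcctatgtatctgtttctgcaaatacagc
Erbb3, A_51_P342050: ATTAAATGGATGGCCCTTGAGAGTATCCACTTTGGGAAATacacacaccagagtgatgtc
Erbb3, A_51_P488243: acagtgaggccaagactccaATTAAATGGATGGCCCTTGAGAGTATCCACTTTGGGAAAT
Erbb3, A_52_P432949: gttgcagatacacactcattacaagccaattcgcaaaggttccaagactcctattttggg

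Levels are given as the log2 of a probe's signal minus the 75th percentile of its array, so 0 is the level of that percentile and a difference of 1 between sites is 2-fold. They compare sites for 1 probe and do not rank different probes. The 75th percentile ran from 99.5 to 285.2 signal units between arrays, and 52.0% to 61.5% of gene spots were well above background. A call needed an adjusted p under 0.05 in limma and a 2-fold difference. The p limit alone, against the spread of repeats, was passed by 32.8% of all genes for PS against SOL, 44.7% for DR1 against DR4, 50.8% for DR1 against DR6 and 44.4% for DR4 against DR6, so differences under 2-fold that pass it are common. Because Btc and Areg were chosen on the stream pools, no member was tested for a stream site against SOL: those differences are descriptions with their SE. The comparisons with SOL share the same SOL arrays.

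Among the members well above background on every array, Btc had the widest range of site means. Its probe (NM_007568, mm8 chr5:92433122-92433181, minus strand) had levels of -1.37, -1.77, -1.53 and -1.66 on the SOL arrays and -1.27, -1.32, -1.40 and -1.36 on the PS arrays. At DR1 the 4 levels were 1.51, 1.68, 1.72 and 2.13, at DR4 they were 3.83, 3.80, 3.83 and 3.85, and at DR6 the 3 levels were 3.103, 3.124 and 3.151. Every stream array was therefore above every SOL and PS array, and the 3 stream sites did not overlap with each other. As signal before scaling, the means were 46.5 units at SOL, 66.9 at PS, 757.1 at DR1, 2657 at DR4 and 1196 at DR6.

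The Btc difference from SOL was 3.34 ± 0.10 (SE) at DR1, or 10.2-fold. It was 5.41 ± 0.10 at DR4, or 42.5-fold, and 4.71 ± 0.11 at DR6, or 26.1-fold. At PS it was 0.25 ± 0.10 (limma, adjusted p = 0.076), which is not a call, and the PS and SOL arrays overlapped. The stream pools may have been set against PS as well as SOL when Btc was chosen, so this is no separate check. Between stream sites, DR1 was lower than DR4 by 4.19-fold (log2 difference -2.07 ± 0.10, limma adjusted p = 1.23e-10) and lower than DR6 by 2.58-fold (-1.36 ± 0.11, adjusted p = 4.76e-08). DR4 was above DR6 by 0.70 ± 0.11 (adjusted p = 7.38e-05), which is under 2-fold. The second Btc probe stayed between 1.95 and 6.68 signal units on all 19 arrays, not well above background on any, so the pattern of Btc rests on 1 spot per array of 1 probe.

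**Figure D1:**
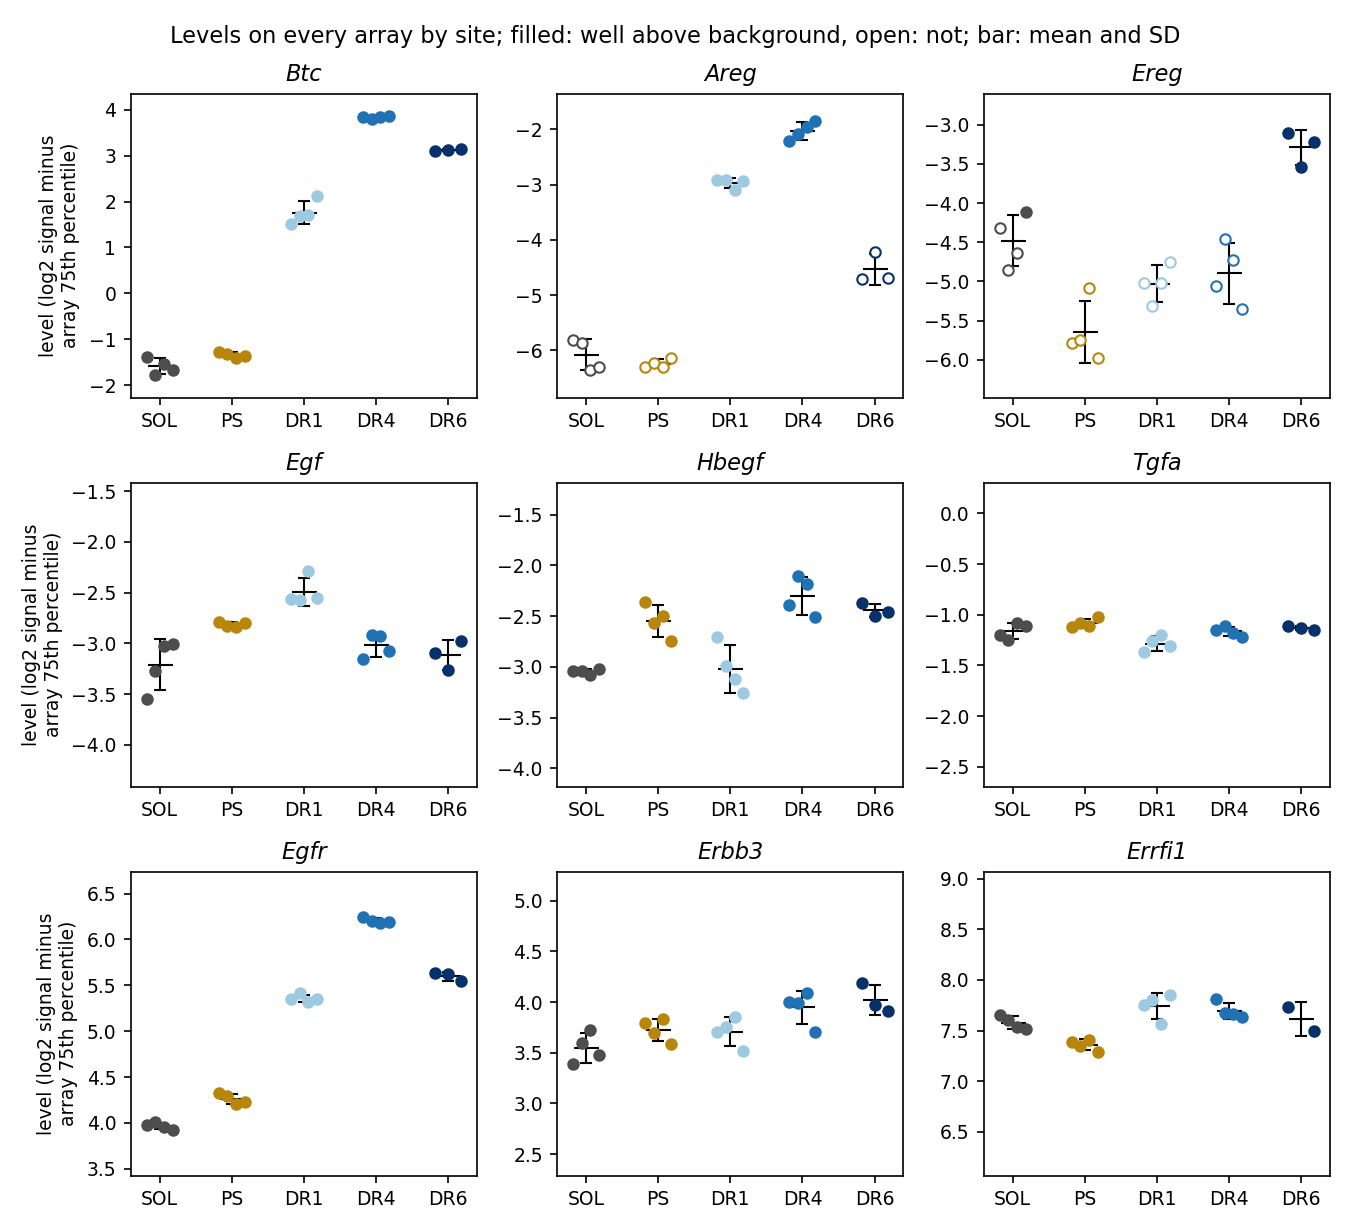
Level of each of the 9 genes (log2 signal minus the array's 75th percentile, vertical axis, scaled separately for each gene) on every array, by site. Points are arrays, filled where well above background and open where not, and bars are the mean and SD over 4 arrays, or 3 at DR6 (2 for Errfi1). Each gene is shown by its brightest probe that passed the filter. By that probe, Btc and Egfr are higher on every stream array than on every SOL and PS array. Areg is well above background at DR1 and DR4 only.

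Areg differed between sites in whether it was measured at all. Its probe (NM_009704, mm8 chr5:92216264-92216323, plus strand) was well above background on all 4 DR1 and all 4 DR4 arrays and on none at SOL, PS or DR6. The levels were -2.91, -2.91, -3.10 and -2.94 at DR1 and -2.21, -2.09, -1.96 and -1.85 at DR4. At DR6 they were -4.71, -4.21 and -4.69, at SOL they ran from -6.35 to -5.81 and at PS from -6.29 to -6.14. Where a site was not well above background, the lowest signal that counted as such on its arrays was used in its place, unless the probe itself was higher, which gives a lower bound of the fold.

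By that bound Areg was at least 2.31-fold higher at DR1 and at least 4.43-fold higher at DR4 than at SOL. It was at least 2.22-fold higher at DR1 than at DR6 and at least 4.25-fold higher at DR4 than at DR6. The probe passed the filter through DR1 and DR4 alone, where it is high, so these 2 bounds are descriptions and no p is given, although the fit across all genes called both. DR1 was below DR4 by 0.94 ± 0.13 (log2 difference -0.94, adjusted p = 2.04e-05), close to 2-fold but under it. SOL, PS and DR6 were all below background, so no fold is given among them. Another treatment of the raw spot signal changed 2 steps at once: a normexp background correction, which adds an offset of 50 units, and quantile scaling. The mean Areg signals before scaling were 28.3 units at DR1 and 46.3 at DR4, under that offset. With this treatment the difference was 0.29 for DR1 against DR6 and 0.52 for DR4 against DR6, neither past 2-fold. Under the same correction the differences from SOL were 0.40 at DR1 and 0.63 at DR4.

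Ereg had no usable probe for its own transcript. The probe designed for it (NM_007950, mm8 chr5:92167833-92167894, plus strand) was not well above background on any array. The probe that passed the filter under this symbol was designed for AK019057, lies at mm8 chr5:92127088-92127147 and is annotated to the opposite strand, so whether it measures Ereg was not tested. It was well above background on 3 of 3 DR6 arrays, with levels of -3.10, -3.54 and -3.22, on 1 of 4 SOL arrays, and on none at PS, DR1 or DR4.

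With that probe DR1 was at least 2.09-fold lower than DR6 and DR4 at least 2.34-fold lower. The probe passed the filter through DR6 alone, so these 2 bounds are descriptions as well, and no p is given. PS was below SOL by a fitted -1.17 ± 0.22 (adjusted p = 5.52e-04), which was a call, but PS was at background and the bound gave no fold. With normexp and quantile scaling the 3 differences were -0.14, -0.13 and -0.09, and none was a call. Of the gut epithelium list, 7 of 8 markers were tested: 4 of 7 were called higher at DR6 than at SOL, and 4 of 7 lower at PS. Between DR1 and DR6, 4 of 7 were lower at DR1, and between DR4 and DR6, 6 of 7 were lower at DR4. The list also moved where the Ereg probe was not past 2-fold. There, 5 of 7 were higher at DR1 than at DR4, and 5 of 7 at DR4 and 2 of 7 at DR1 were lower than at SOL. The summed level of a list is the sum of its markers' signals, each divided by the array's 75th percentile, and is set by the abundant markers. For gut epithelium it was 55.6 to 68.4 at SOL, 39.1 to 44.0 at PS, 43.7 to 55.8 at DR1, 19.9 to 23.2 at DR4 and 32.0 to 36.1 at DR6. Muc2 was at background at all 5 sites and Cdx2 at all but DR6. Defa1, Defcr6 and Agr2 were also at background at PS, Defcr6 at DR1, and Defa1 and Defcr6 at DR4. The part of such RNA in the Ereg signal was not tested.

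The 5 probes of Btc, Areg and Ereg lie together in 307 kb of chromosome 5 (mm8 chr5:92127088-92434264). The genes did not share 1 pattern. At DR6, Btc was above its DR1 level and Areg below, and the probe with the Ereg symbol was above background at DR6 where Areg was not.

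Egf, Hbegf and Tgfa, ligands on other chromosomes, stayed within 2-fold in every comparison. Egf (mm8 chr3:129669930-129669989, minus strand, 10 spots per array) had its higher levels at DR1, with -2.56, -2.57, -2.28 and -2.55, against -3.55, -3.27, -3.03 and -3.01 at SOL. DR1 and SOL did not overlap, and the difference was 0.72 ± 0.11, or 0.15 with normexp and quantile scaling. Egf at PS was above SOL by 0.39 ± 0.11 (limma, adjusted p = 0.00927), at DR1 above DR4 by 0.53 ± 0.11 (adjusted p = 7.12e-04) and above DR6 by 0.62 ± 0.12 (adjusted p = 3.25e-04), all under 2-fold. With normexp and quantile scaling these 3 differences were 0.079, 0.13 and 0.19, and the first no longer passed the p limit (limma, adjusted p = 0.127). Egf is a known product of kidney tubule. Of 6 kidney tubule markers, 5 were tested, and 4 of the 5 were called higher at PS than at SOL, while none was called between DR1 and SOL and 1, Umod, was higher at DR1 than at DR4. Their summed level was 1.55 to 1.65 at PS, 0.68 to 1.32 at SOL, and 0.63 to 0.79 at DR1, with 0.41 to 0.54 at DR4 and 0.99 to 1.05 at DR6. At DR1 and at SOL, Kap, Slc12a1, Slc34a1 and Cdh16 were at background on all arrays. The part of such RNA in the Egf difference between PS and SOL was not tested.

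Hbegf (chromosome 18, 1 probe) was level with SOL at DR1 and above it elsewhere. Its levels were -3.04, -3.04, -3.08 and -3.03 at SOL and -2.71, -2.99, -3.12 and -3.26 at DR1, which overlap. At PS they were -2.36, -2.57, -2.50 and -2.75, at DR4 -2.40, -2.10, -2.19 and -2.51, and at DR6 -2.37, -2.50 and -2.46. PS was above SOL by 0.50 ± 0.11 (limma, adjusted p = 0.00209), and DR1 was below DR4 by 0.72 (log2 difference -0.72 ± 0.11, adjusted p = 5.30e-05) and below DR6 by 0.58 (-0.58 ± 0.12, adjusted p = 7.76e-04). DR4 and DR6 differed by 0.15 ± 0.12 (adjusted p = 0.345), within the spread of the arrays. From SOL, Hbegf differed by 0.75 ± 0.11 at DR4 and 0.60 ± 0.12 at DR6. With normexp and quantile scaling it differed from SOL by 0.16 at PS, 0.22 at DR4 and 0.18 at DR6, and DR1 differed from DR4 by -0.24 and from DR6 by -0.20, all with the same sign but smaller.

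The 2 Tgfa probes differed. The brighter one (mm8 chr6:86240478-86240537, plus strand, 10 spots per array) had means of -1.16 ± 0.08 (SD, n = 4) at SOL, -1.09 ± 0.05 at PS, -1.28 ± 0.07 at DR1, -1.16 ± 0.05 at DR4 and -1.13 ± 0.02 (n = 3) at DR6. Of the 4 tested comparisons only DR1 against DR6 passed the adjusted p limit (limma, -0.15 ± 0.06, adjusted p = 0.0292), and for PS against SOL the difference was 0.07 ± 0.05. The dimmer Tgfa probe was well above background on 16 of 19 arrays, 1 of 4 at SOL and all at the other sites. It differed from SOL by 0.42 ± 0.18 at PS (limma, adjusted p = 0.0794), 0.56 ± 0.18 at DR1, 0.47 ± 0.18 at DR4 and 0.93 ± 0.19 at DR6, and its PS, DR4 and DR6 arrays did not overlap with SOL.

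Egfr itself was higher in the stream pools. Its brightest probe (NM_207655, mm8 chr11:16813815-16813874, plus strand, 10 spots per array) had levels of 3.98, 4.01, 3.95 and 3.93 at SOL and 4.32, 4.29, 4.20 and 4.23 at PS. At DR1 they were 5.35, 5.41, 5.32 and 5.35, at DR4 6.24, 6.20, 6.18 and 6.19, and at DR6 5.63, 5.62 and 5.54. No 2 sites overlapped, in the order SOL, PS, DR1, DR6, DR4, which is also the order of the Btc means. From SOL, Egfr differed by 1.39 ± 0.04 at DR1 (2.62-fold), 2.23 ± 0.04 at DR4 (4.70-fold) and 1.63 ± 0.05 at DR6 (3.1-fold). In the 4 tested comparisons, PS was above SOL by 0.29 ± 0.04 (limma, adjusted p = 7.42e-05), and DR1 was below DR4 by 0.84 (-0.84 ± 0.04, adjusted p = 2.51e-10). DR4 was above DR6 by 0.60 ± 0.05 (adjusted p = 3.97e-08), and DR1 below DR6 by 0.24 (-0.24 ± 0.05, adjusted p = 5.51e-04). Each of these 4 differences passed the adjusted p limit and none reached 2-fold.

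Of the other 5 Egfr probes, 4 were also past 2-fold above SOL at all 3 stream sites. The probe for the second transcript (NM_007912, mm8 chr11:16787385-16787444, 10 spots) had means of 2.07 ± 0.06 (SD, n = 4) at SOL, 2.69 ± 0.03 at PS, 3.37 ± 0.05 at DR1, 4.22 ± 0.03 at DR4 and 3.38 ± 0.08 (n = 3) at DR6. Over the 6 Egfr probes, 6 were past 2-fold above SOL at DR4, 5 at DR1 and 5 at DR6. All 6 were lower at DR1 than at DR4 (-1.11 to -0.65) and lower at DR6 than at DR4 (differences of 0.58 to 1.84, DR4 minus DR6), each with a limma adjusted p under 0.05, of which 1 and 3 were past 2-fold. In the fit of single probes 4.92% and 6.13% of all probes were called in these comparisons, and 43.5% and 43.8% passed the p limit alone. Between DR1 and DR6 the probes went both ways, from -0.24 to 0.93. Between PS and SOL 4 were higher at PS and 2 lower, from -0.65 to 0.61. The fifth was the probe for the cDNA AK049452 (mm8 chr11:16655638-16655697), 128 kb before the next: it was above SOL by 1.45 ± 0.11 at DR4, by 0.54 ± 0.11 at DR1, and below it at DR6 (-0.39 ± 0.12).

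**Figure D2:**
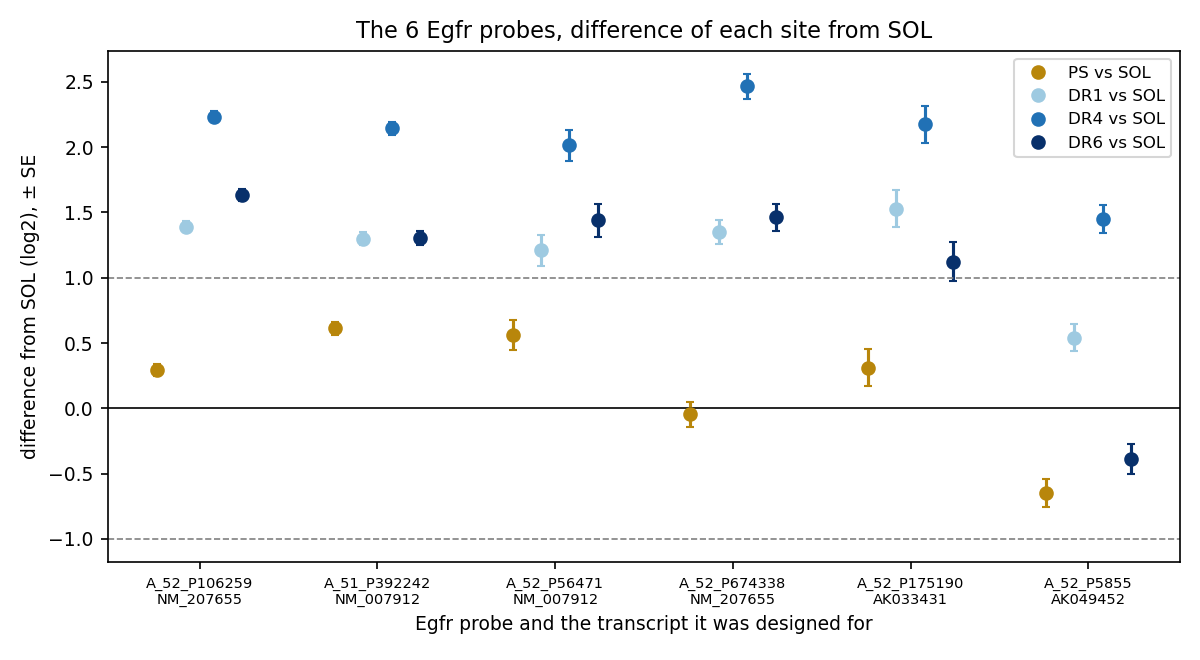
Difference of each site from SOL (log2, with SE) for the 6 Egfr probes, named with the transcript each was designed for; dashed lines mark 2-fold. DR4 is the highest site for all 6 probes, between 1.45 and 2.46 above SOL, and the last probe lies below SOL at PS and DR6.

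Erbb3 was read differently by its probes. The brightest (XM_972868, mm8 chr10:127970642-127970701, minus strand) had means of 3.55 ± 0.15 (SD, n = 4) at SOL, 3.73 ± 0.11 at PS, 3.71 ± 0.14 at DR1, 3.95 ± 0.17 at DR4 and 4.02 ± 0.15 (n = 3) at DR6. Of its 4 tested comparisons 1 passed the adjusted p limit, DR1 against DR6 (limma, -0.31 ± 0.11, adjusted p = 0.0240), and none was a call. The 4 probes for NM_010153 were much dimmer. The brightest of these, A_51_P342050 (mm8 chr10:127975088-127975147), was lower at the other sites than at SOL, with means of -2.12 at SOL, -2.42 at PS, -2.71 at DR1, -2.72 at DR4 and -2.45 at DR6, and PS against SOL did not pass the test (-0.30 ± 0.13, adjusted p = 0.0886). Of the NM_010153 probes only A_51_P414813 had a call, DR1 below DR6 (limma, -1.48 ± 0.26, adjusted p = 2.04e-04), with 2 of 4 DR1 arrays well above background. Taking the mean over the kept Erbb3 probes turned the sign of PS against SOL to -0.11, so no direction for Erbb3 is given.

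Errfi1 (mm8 chr4:149712217-149712276, plus strand) was bright at every site, with means of 7.58 ± 0.06 (SD, n = 4) at SOL, 7.36 ± 0.05 at PS, 7.74 ± 0.12 at DR1, 7.70 ± 0.08 at DR4 and 7.62 ± 0.17 at DR6, where 1 outlier spot was dropped and n = 2. PS was below SOL by 0.22 (limma, log2 difference -0.22 ± 0.07, adjusted p = 0.0266), under 2-fold, and no stream pair passed the test. The spot was saturated on 1 DR1 array, which had the lowest DR1 level, so the DR1 mean is a lower bound. The measured values differed from SOL by 0.16 ± 0.07 at DR1, 0.12 ± 0.07 at DR4 and 0.04 ± 0.09 at DR6. With normexp and quantile scaling Errfi1 differed by 0.38 at DR1 and 0.49 at DR4, still under 2-fold.

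**Figure D3:**
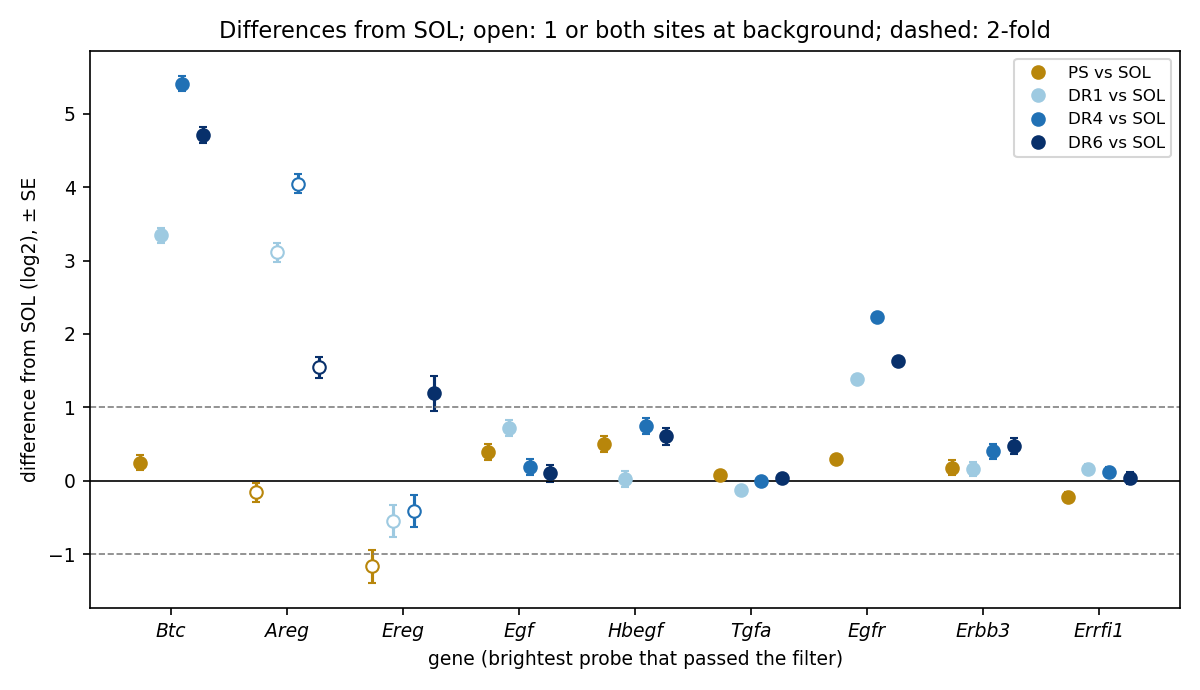
Difference of each site from SOL (log2, vertical axis, with SE) for the probe that stands for each gene. Open points have 1 or both sites at background, where the fitted value is not a fold, and dashed lines mark 2-fold. Btc and Egfr are the genes measured at both sites that lie past 2-fold at all 3 stream sites.

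Past 2-fold and the adjusted p limit, 1 of 9 members was called for PS against SOL (the Ereg probe, lower), where 4.42% of all genes were called and 2.18% were lower. The count was 1 of 9 for DR1 against DR4 (5.15% of all genes), 3 of 9 for DR1 against DR6 (7.50%) and 2 of 9 for DR4 against DR6 (6.16%). Areg and the Ereg probe, which passed the filter through the higher site alone, make up 2 of the 3 and both of the 2, so those 2 counts are not read against the share of all genes. With normexp and quantile scaling these counts were 0, 2, 1 and 0; the 2 were Btc and Egfr, whose difference of DR1 from DR4 was then -1.04. Against SOL, 3 members were past 2-fold at DR1, 3 at DR4 and 4 at DR6, all higher. Of all genes, 3.53%, 5.43% and 4.67% were called higher there, which also needed the p limit, so the measures differ. The members were chosen on this contrast, and the count at DR6 holds Areg, at background at both sites, and the Ereg probe. The median difference of the 9 members was 0.18 for PS, 0.16 for DR1, 0.40 for DR4 and 0.60 for DR6, beside -0.01, 0.01, -0.05 and -0.00 over all genes.

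The rest of the pathway was taken from 7 lists, 92 genes, of which 90 were on the array and 82 were tested. The lists were drawn up by function, but with earlier results of these data known. Against SOL, 2 of the 82 were called at PS (2.44%, beside 4.42% of all genes), 5 at DR1 (6.10% beside 6.08%), 13 at DR4 (15.9% beside 10.5%) and 14 at DR6 (17.1% beside 6.95%). Between stream sites 8 were called for DR1 against DR4 (9.76% beside 5.15%), 12 for DR1 against DR6 (14.6% beside 7.50%) and 5 for DR4 against DR6 (6.10% beside 6.16%). The shares for DR1 against SOL and DR4 against DR6 were near those of all genes. The medians of the 82 genes lay between -0.10 and 0.09 in all 7 comparisons. With normexp and quantile scaling the counts were 1, 3, 7 and 8 against SOL and 2, 6 and 3 between stream sites, and the 8 for DR1 against DR4 fell to 5 without DR1 replicate 3 or without DR1 replicate 4. When the 5 pools were the units, the stream pools against SOL and PS, limma called 0 of the 82 and 0 of all 16346 genes, with 14 of the 82 and 1691 of all genes (10.3%) at an unadjusted p under 0.05.

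Among the other ErbB ligands, the neuregulins Nrg1 and Nrg4 were tested. Both rose at DR4 and DR6: Nrg4, by 1.36 ± 0.09 (limma, adjusted p = 1.07e-09) and 1.40 ± 0.10 (adjusted p = 5.40e-09), and Nrg1, by 1.28 ± 0.19 (adjusted p = 2.03e-05) and 1.19 ± 0.20 (adjusted p = 1.68e-04). Nrg4 was also 0.97 ± 0.09 above SOL at PS, under 2-fold. No Nrg1 probe was well above background on more than 12 of the 19 arrays. Epgn, which encodes epigen, was well above background on 7 arrays and Nrg3 on 1, and neither passed the filter. The receptors Erbb2, the preferred partner of the other ErbB receptors, and Erbb4 had no call in any of the 7 comparisons: Erbb2 differed from SOL by -0.29 to 0.01 and Erbb4 by -0.16 to 0.50.

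Of 9 tested genes of ligand shedding, Rhbdf2, a partner of the protease ADAM17, rose at DR4 (1.46 ± 0.40, limma adjusted p = 0.00488) and at DR6 (1.28 ± 0.43, adjusted p = 0.0229), and no other was called against SOL. Its relative Rhbdf1 was lower at DR1 than at DR6 (-1.19 ± 0.11, adjusted p = 1.70e-07). The 18 tested adaptors and Ras-ERK kinases and the 12 genes of the PI3K, STAT and PLC branches had no call in any of the 7 comparisons.

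Among 22 tested feedback inhibitors and genes of receptor turnover, Dusp1, a phosphatase of MAP kinases, rose at the 3 stream sites, by 1.25 ± 0.05 at DR1, 2.03 ± 0.05 at DR4 and 1.53 ± 0.05 at DR6 (limma, adjusted p = 8.93e-12, 5.77e-15 and 1.74e-12). Dusp6, a phosphatase of ERK, fell at PS (-1.14 ± 0.06, adjusted p = 1.71e-09) and at DR4 (-1.01 ± 0.06, adjusted p = 2.35e-09). The Cbl genes encode ubiquitin ligases that send EGFR to degradation: Cblc rose at DR4 (1.19 ± 0.08) and Cbl at DR6 (1.08 ± 0.27), and Cblb was at least 3-fold lower at DR1 than at DR6, where DR1 was at background. No probe of Cbl itself was well above background on more than 8 of the 19 arrays, and none of Cblb on more than 12. Hgs, which sorts ubiquitinated receptors in endosomes, was lower at DR1 than at DR4 (-1.02 ± 0.08) and DR6 (-1.43 ± 0.09).

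ERK-responsive transcripts held more of the calls against SOL than any other of the 7 lists at DR1, DR4 and DR6. Of 20 listed, 17 were tested, and 3 rose at DR1 (3.53% of all genes were called higher there), 6 at DR4 (5.43%) and 8 at DR6 (4.67%), with 0, 1 and 1 lower. At PS none rose and 1 fell. The list's median difference was 0.54, 0.67 and 0.99 at DR1, DR4 and DR6 and -0.08 at PS. Fos, an immediate early transcription factor, rose by 2.55 ± 0.12, 1.87 ± 0.12 and 2.02 ± 0.13 at DR1, DR4 and DR6, and Myc by 1.64 ± 0.06, 2.47 ± 0.06 and 2.29 ± 0.06. Other large calls were Egr1 at DR1 (1.16 ± 0.13), Ier3 at DR4 (1.71 ± 0.08), and Atf3 and Maff at DR6 (3.74 ± 0.09 and 2.14 ± 0.10). Ccnd1, the cyclin that drives entry into the cell cycle, went the other way and fell at PS (-1.09 ± 0.06) and DR4 (-1.91 ± 0.06). Between stream sites Egr1 and Ccnd1 were called higher at DR1 than at DR4 (1.60 ± 0.13 and 1.03 ± 0.06). Etv4 and Klf6 were called lower there (-1.44 ± 0.27 and -1.07 ± 0.10). For DR1 against DR6, 1 was higher and 5 were lower. The largest were Atf3, Jun, Klf6 and Maff (-2.81 ± 0.09, -1.94 ± 0.07, -1.79 ± 0.11 and -1.60 ± 0.10). DR4 was below DR6 for Atf3, Jun and Zfp36 (-2.50 ± 0.09, -1.23 ± 0.07 and -1.05 ± 0.17) and above it for Phlda1 (1.17 ± 0.06). These genes answer many stimuli, and the list does not separate EGFR signalling from others.

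**Figure D4:**
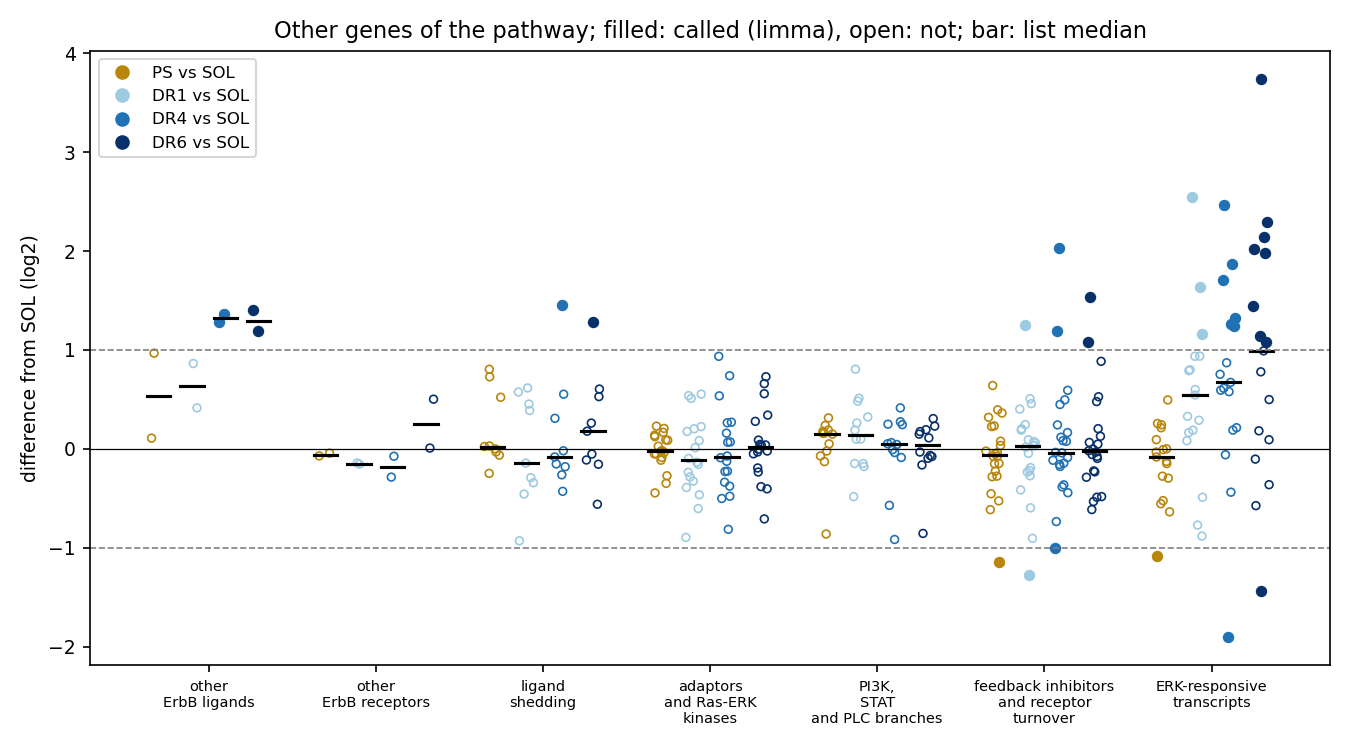
Difference from SOL (log2, vertical axis) of the 82 tested pathway genes in 7 lists, by site; filled points were called by limma, open points were not, and bars are list medians. Calls lie mainly among ERK-responsive transcripts, 8 higher at DR6, while the lists of kinases and of the PI3K, STAT and PLC branches have none.

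The genes most like Btc and Areg were sought among 11341 with a symbol, by the root mean square distance between the 4 differences from SOL. For Btc they were Cacnb4 (1.14 on the log2 scale), Sgk (1.18), Fst (1.35), Kcnab1 (1.36) and Tnfaip6 (1.40). Sgk, a kinase gene known to respond to serum and glucocorticoid, differed from SOL by -0.03 at PS, 3.00 at DR1, 3.63 at DR4 and 3.22 at DR6. Fst, which encodes follistatin, differed by 0.18, 1.53, 3.88 and 3.43. For Areg they were Tnfaip6 (0.41), Olfr166 (0.72), Socs2 (0.76), Sesn1 (0.77) and Sgk (0.87). Cacnb4 and Tnfaip6 were at background at SOL, like Areg, so their differences are not folds.

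Markers of other cells were read in the same pools, in which fewer cells of a type and less RNA per cell cannot be told apart. The 5 measured hepatocyte markers had a summed level of 611 to 1174 over all arrays, a lower bound because Ahsg was saturated at the brighter sites, and of them only 1 was called against SOL, lower at PS. The 7 macrophage markers summed to 97.4 to 116.7 at SOL, 74.0 to 80.7 at PS, 69.2 to 78.1 at DR1, 34.6 to 40.2 at DR4 and 36.2 to 39.0 at DR6, with 1, 1, 3 and 1 of 7 called lower than at SOL at PS, DR1, DR4 and DR6. The 7 markers of cholangiocytes, the bile duct cells, summed to between 9.03 and 14.9, the upper end at DR1. Cftr was called higher at DR4 than at SOL, and Sox9 higher at DR1 and DR4 than at DR6 (1.01 and 1.10). Krt7, Krt19, Tacstd1 and Spp1 were lower at DR4 than at DR6 (-0.35, -0.09, -0.48 and -0.05). Cftr and Tcf2 were higher there (0.81 and 0.36), and none of these was called. The list's median difference was 0.12 for DR4 against SOL, 0.43 for DR1 against DR6 and -0.05 for DR4 against DR6. Exocrine pancreas markers summed to 825.1 to 896.7 at SOL, 189.4 to 192.1 at PS, 332.6 to 491.0 at DR1, 70.0 to 114.8 at DR4 and 1010 to 1053 at DR6. Of 7 pancreas markers, 7 were called lower than at SOL at PS, 3 at DR1, 7 at DR4 and 0 at DR6.

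Markers of stellate cells, the collagen-making cells of liver, summed to 9.79 to 10.6 at SOL, 7.93 to 8.40 at PS, 10.8 to 12.7 at DR1, 9.24 to 9.89 at DR4 and 12.4 to 12.6 at DR6. Of 8, 3 were called higher than at SOL at DR1 (Col1a1 1.18, Col3a1 1.32, Lum 1.59), none at DR4 and 2 at DR6 (Col1a1 1.08, Lum 1.43). Col1a2, Lrat, Des, Acta2 and Reln were not called at any of these sites. From SOL, Lrat, Des, Acta2 and Reln differed by -0.12, 0.15, -0.45 and -1e-04 at DR1. They differed by -0.79, -0.35, -0.37 and -0.37 at DR4, and by 0.08, 0.55, 0.02 and 0.02 at DR6. Of 4 tested neutrophil markers, Lcn2 was called higher than at SOL at DR1 and DR4, against background at SOL. Lcn2 was well above background on 3 of 4 DR1 arrays, at least 1.92-fold higher. At DR4 it was so on 1 of 4 arrays, and the bound gave no fold. Between DR1 and DR6, 3 of the 4 markers were called higher at DR1. Ngp and Camp were at background on all arrays of every site but DR4. The list summed to 4.30 to 5.27 at SOL, 7.33 to 8.81 at PS, 8.71 to 10.3 at DR1, 6.72 to 7.63 at DR4 and 4.08 to 4.46 at DR6. Of 4 tested lung epithelium markers, 2 were called higher than at SOL at PS, 2 at DR1, 1 at DR4 and 2 at DR6. These were Sftpc and Sftpd (Sftpd alone at DR4), both at background on all SOL arrays, and Sftpb was at background at all 5 sites. The list summed to 0.77 to 1.10 at SOL, 0.74 to 0.82 at PS, 1.40 to 1.52 at DR1, 1.26 to 1.40 at DR4 and 1.20 to 1.21 at DR6. Endothelial markers had no call in the 7 comparisons, and squamous epithelium had 1, Krt1 lower at DR4 than at DR6. The part of any of these lists in the differences of Btc, Areg and Egfr was not tested.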

How the data were processed

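The deposited scanner files hold linear spot intensity, per the file headers: a processed, background-corrected intensity and the raw mean and local background intensity, with the extraction software's flags for background, saturation, outliers and controls. Per the submitters' processing notes, the authors ran Feature Extraction from Agilent, version 9.5.3.1. The deposited table of the series holds the same intensity, rounded (largest difference 0.497%, column medians 9.72 to 24.8, not centred).

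Levels are log2 of the processed signal minus the 75th percentile of each array, without 1639 control spots and outlier spots, and with spots of 1 probe averaged. The filter kept 23458 probes that, at 1 site or more, were well above background on 3 or more arrays, and a gene was its brightest kept probe. The other probes were fitted separately, a choice made after the data were seen. Gene names and mm8 coordinates come from the SOL files and probe sequences from the DR1 files, which carry an older annotation. Promoters, proteins and a genome were not used here. Limma 3.58.1 in R 4.3.3 was fitted to all 19 arrays with a mean per site, two-sided, with Benjamini-Hochberg adjustment over all genes of a comparison. On simulated data for PS against SOL (16346 genes), calls recovered 89.6% of genes changed by 1.5 on the log2 scale and 100% of those changed by 2 or 3. There, 3 unchanged genes were called. The simulated noise was the spread of repeats alone, without slides, pools, mice or a floor at background, so recovery applies to that spread only. Alternatives were median and quantile scaling, normexp with an offset of 50 and quantile scaling, other filters and probe rules, the replicate block and leaving out each array.

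The members and lists were chosen with earlier results of these data known. The text names all members, the other ErbB ligands and receptors, the 5 genes most like Btc and Areg, and up to 4 of the largest calls of each pathway list and comparison, where every array of the higher site was above background.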

Additional observations from a re-analysis of the deposited data

Results flagged for a closer look

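In 36 groups of 4 arrays (9 genes, 4 sites), 2 had an array far from the other 3, and chance marks about 1 group in 20. The Areg level of DR1 replicate 3 was -3.10, below the -2.94 to -2.91 of the other 3 arrays. The Egf level of DR1 replicate 3 was -2.28, above the -2.57 to -2.55 of the other 3. Both values come from the same array, which had the highest 75th percentile of signal of all 19, 285.2. Leaving out 1 array at a time, Areg at DR1 against DR4 ranged from -0.997 to -0.877 and Egf at DR1 against DR4 from 0.46 to 0.56.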

How the results depend on the processing

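Among the counts of members and pathway genes, those that moved by over 1.5 times did so under 2 kinds of alternative: the normexp correction with quantile scaling, and leaving out 1 array for the pathway calls of DR1 against DR4. Under the first the members called were 0 for PS against SOL, 2 for DR1 against DR4, 1 for DR1 against DR6 and 0 for DR4 against DR6, and member differences past 2-fold of the stream sites from SOL fell from 10 to 6. Pathway calls were then 1 for PS, 3 for DR1, 7 for DR4 and 8 for DR6 against SOL, and 2, 6 and 3 for DR1 against DR4, DR1 against DR6 and DR4 against DR6. All genes called by it also fell, for DR4 against SOL from 1722 to 596. With quantile scaling alone 1734 were called in that comparison. The cause was not tested. Btc then differed from SOL by 2.39, 4.33 and 3.52 at DR1, DR4 and DR6, and Egfr by 1.26, 2.29 and 1.54.

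Leaving out 1 array at a time gave 5 to 8 pathway calls for DR1 against DR4, with 5 without DR1 replicate 3 or 4. Small differences that were not calls changed sign: Tgfa for DR4 against DR6 was 0.061 with median and 0.013 with quantile scaling, and Erbb3 for DR4 against DR6 was 0.023 with median scaling and 0.043 with normexp. Areg for PS against SOL was 0.11 with quantile scaling, and Errfi1 for DR1 against DR4 was -0.10 with quantile scaling and -0.11 with normexp. With the mean of the kept probes Erbb3 for PS against SOL was -0.11 and Egfr for DR1 against DR6 was 0.12. Without 1 array, Ereg for DR1 against DR4 ranged from -0.28 to 0.018, Erbb3 for DR4 against DR6 from -0.13 to 0.0099 and Errfi1 for DR4 against DR6 from -0.037 to 0.20.

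Same-numbered arrays of different sites correlated at a median r of 0.09 (-0.16 to 0.48 over 36 pairs, 16 above 0.1). For arrays with different numbers the median r was -0.03 (-0.41 to 0.46 over 108 pairs, 14 above 0.1). Of 19 arrays, 11 correlated best with their own number. The main fit did not pair arrays by number, and whether the numbers mark a shared step was not tested. With the replicate block the members called were 1, 1, 3 and 2 for PS against SOL, DR1 against DR4, DR1 against DR6 and DR4 against DR6, and pathway calls for DR1 against DR4 were 7. With median scaling the share of higher genes among all calls went from 67.2% to 55.8% for DR6 against SOL, from 43.5% to 55.4% for DR1 against DR6 and from 38.7% to 49.2% for DR4 against DR6. Areg and the Ereg probe are limited by signal over background. Btc, Areg, Egf, Hbegf and Errfi1 are limited by 1 usable probe, and Ereg by 1 probe past the filter.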
